A study of Mus musculus with 10 samples.

Results

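The genes described here are Gsdmd, Gsdme, Ninj1, Panx1 and Chmp4b, which encode gasdermin D, gasdermin E, ninjurin-1, pannexin-1 and charged multivesicular body protein 4B. They were chosen by name as genes of pore formation, membrane rupture and membrane repair. All 5 were found as rows of the deposited table of read counts per gene, among 29700 rows that are not circular RNAs. RNA was sequenced from thioglycollate-elicited peritoneal macrophages of C57BL/6 mice aged 8 weeks, in 5 control and 5 ox-LDL libraries. By the sample labels the ox-LDL cells were primed with LPS at 100 ng/ml and then received oxidized low-density lipoprotein (ox-LDL) at 100 µg/ml for 16 h, while the control cells were untreated. Read this way, the groups differ in LPS and in ox-LDL at once, and the effects of the 2 agents cannot be told apart. The study's own legend leaves room for the reading that the controls were primed too, and the sources used here do not settle this. The series calls the libraries biological replicates, and how many mice contributed to each was not stated.

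Gasdermins are cytosolic proteins that a protease cuts between a pore-forming N-terminal part and an inhibitory C-terminal part, after which the freed N-terminal parts assemble into plasma membrane pores. Gasdermin D is the substrate of the inflammatory caspases, caspase-1 and caspase-11, and its pore is the executioner of pyroptosis in macrophages, whereas gasdermin E is freed by other proteases. Ninjurin-1 assembles in the membrane of dying cells and drives the final rupture, pannexin-1 forms a channel that releases ATP and that caspases can open, and CHMP4B is the filament-forming subunit of ESCRT-III, the machinery that sheds damaged membrane and counters gasdermin pores.

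Of the 5 genes, 3 differed between the groups at an adjusted p below 0.01, and 14.7% of the 12654 genes tested did so. Gsdmd and Panx1 were higher, Gsdme was lower, and Ninj1 and Chmp4b did not pass the threshold. By direction, 2 of the 5 were higher against 9.4% of the genes tested, and 1 was lower against 5.35%. Past a log2 fold change of 2 as well, the cutoff of the study for upregulated and downregulated genes, there were 0 upregulated members against 4.78% of the genes tested and 1 downregulated member against 1.93%. The number of members called depended on the libraries and the scaling. It was 3 of 5 without ox-LDL replicate 2 (25.1% of the genes tested called) or 5 (12.8%). It was 1 of 5 without control replicate 2 (10.2%), 3 (10.9%) or 4 (9.76%) and with library size alone (10.2%). When any other library was left out, it was 2 of 5 (10.2% to 15.3%). Gsdme was among those called each time. With limma on log2(FPKM + 1), in which the calls over all genes turned from mostly higher (1189 against 677 lower) to mostly lower (555 against 750), Gsdmd was still higher and Gsdme still lower, while Panx1 was no longer called. The p-values come from edgeR's quasi-likelihood test with adjustment over all genes tested, and levels are given as CPM, counts scaled to a common library size after TMM scaling of the libraries.

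**Figure D1:**
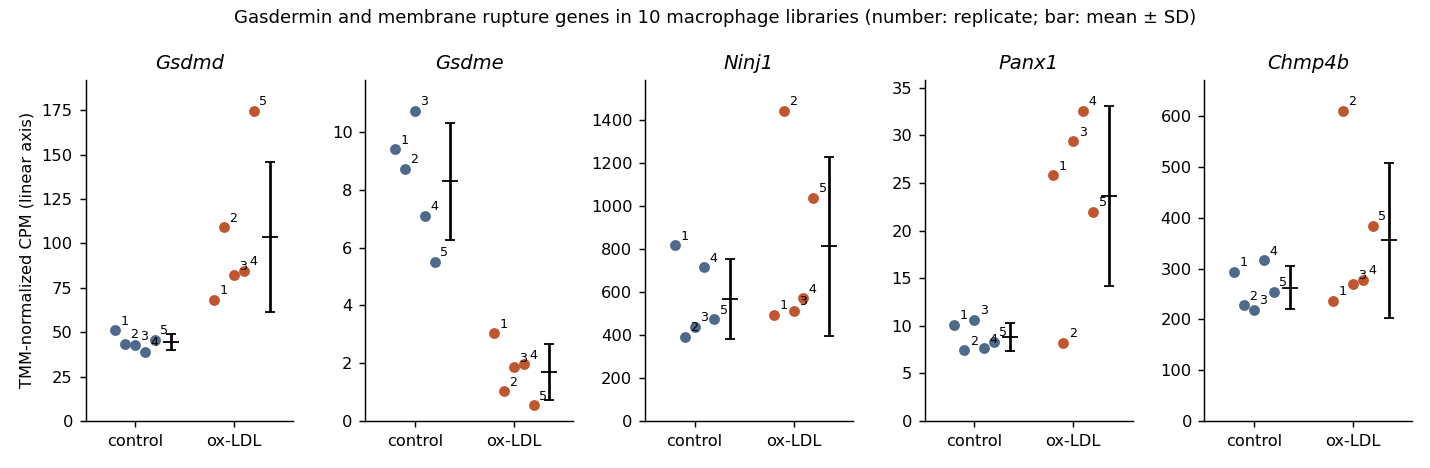
TMM-normalized CPM (linear axes starting at 0) of the 5 genes in each control and ox-LDL library, with the replicate number beside each point and the mean ± SD of each group (n = 5) as a black bar. Gsdmd and Gsdme do not overlap between the groups, Panx1 does so only through ox-LDL replicate 2 at 8.22 CPM, and Ninj1 and Chmp4b overlap widely.

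The libraries held 19257131 to 20687289 counts each. Markers of macrophages were present in every library. Adgre1, which encodes F4/80, had a mean of 269 CPM in the controls and 1135 CPM after ox-LDL, and Cd68 had means of 1494 and 1994 CPM. Of the 10 macrophage markers 4 were called, Adgre1 and Cd14 as higher and Mrc1 and Cd163 as lower (-2.24 and -3.95 on the log2 scale). Cd163 was near the floor, with means of 0.753 CPM in the controls and 0.0398 CPM after ox-LDL and at most 2 counts in any ox-LDL library. The sum of the 10, in CPM by library size and led by Lyz2, had a median of 26708 in the controls and 14188 after ox-LDL, with overlapping ranges of 23257 to 42904 and 13381 to 28382. In ox-LDL replicate 2, and less so in controls 1 and 4, levels ran high for short genes and low for long ones, with Spearman correlations between deviation from the group mean and gene length of -0.65, -0.57 and -0.46, against values from 0.06 to 0.51 in the other 7 libraries. The TMM factor of ox-LDL replicate 2 was 0.593, the lowest of all, so that its CPM values are raised most over those scaled by library size alone. Summed levels of other cell types, in CPM by library size, were at most 3.52 for 5 B cell markers and at most 1.65 for 8 T and NK cell markers. The sum of 12 mesothelial and stromal markers was 17.6 to 56.2 in control and 66.7 to 166 in ox-LDL libraries, with Dcn, Col1a1 and Col1a2 called as higher. Dcn was the most abundant of the 12, with means of 27.1 and 80.4 CPM. Other markers of this list, too low to be tested, went the other way. Upk3b had means of 0.524 and 0.0750 CPM, Lrrn4 of 0.456 and 0.109, and Lum of 0.112 and 0.0217. The sum of 8 neutrophil markers was 19.4 to 45.0 and 24.3 to 92.4, with S100a8 called as higher, while Mmp8, the other neutrophil marker tested, was at -1.25 on the log2 scale (adjusted p = 0.0670) and Ltf had means of 0.960 and 0.0653 CPM; without ox-LDL replicate 2, Ltf was tested and called as lower. The sum of 7 eosinophil and mast cell markers was 3.30 to 14.5 and 0.574 to 4.34, with Siglecf called as lower, and the sum of 5 dendritic cell markers had medians of 0.887 and 2.74, with Clec9a called as higher. None of these markers was at 0 in every library. The mesothelial and stromal sum and the dendritic cell sum did not overlap between the groups, and the macrophage, neutrophil, eosinophil and mast cell, B cell, and T and NK cell sums did. The part of other cells in the results was not tested. In bulk RNA, fewer cells of a type and less RNA per cell cannot be told apart.

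Gsdmd (NCBI gene 69146) lies on chromosome 15 of the mouse build mm9, from 75692769 to 75697834 on the plus strand, holding 11 exons after merging of its transcripts and no other annotated gene across it. Its levels in control replicates 1 to 5 were 51.0, 43.6, 42.6, 39.1 and 45.8 CPM. In ox-LDL replicates 1 to 5 they were 68.3, 109, 82.0, 84.6 and 175 CPM. The lowest treated value exceeded the highest control value, and the treated libraries were spread more widely, with a coefficient of variation of 40.8% against 9.92% and the highest TMM-normalized values in replicates 5 and 2. The groups did not overlap for 20.7% of all genes tested. Gsdmd rose 2.34-fold, or by 1.22 on the log2 scale, with a standard error of 0.25 and an adjusted p of 0.00360 from edgeR's test. Without ox-LDL replicate 5, the log2 fold change was 0.95 (adjusted p = 0.00423). Gsdmd was no longer called with library size alone as the scaling (adjusted p = 0.0110) or without control replicate 2 (0.0123), 3 (0.0119) or 4 (0.0135). The log2 fold changes in these settings were 0.99 to 1.21.

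Gsdme (NCBI gene 54722, named Dfna5 in the mm9 annotation) lies on chromosome 6 from 50139368 to 50213861 on the minus strand, with 13 merged exons. It moved the opposite way to Gsdmd. Its levels in control replicates 1 to 5 were 9.40, 8.73, 10.7, 7.11 and 5.52 CPM, and in ox-LDL replicates 1 to 5 they were 3.04, 1.03, 1.85, 1.96 and 0.538 CPM. The highest ox-LDL library was below the lowest control. In counts, the controls held 127 to 251 reads and the ox-LDL libraries 8.73 to 70.4, so that the level of the treated group rests on few reads. Gsdme fell by 2.27 on the log2 scale (standard error 0.39, adjusted p = 0.00131 from edgeR's test), 4.83-fold and past the log2 cutoff of 2. It stayed called in each of the 22 other settings that gave a test, with adjusted p values of at most 0.00552.

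The Gsdme gene shares 9230 bases with Mpp6, a gene for a membrane-associated guanylate kinase on the opposite strand, 1614 of them in exons of Gsdme. Estimated counts were not whole numbers in any of the 10 libraries for either gene, whereas they were whole in all 10 for Gsdmd, Ninj1, Panx1 and Chmp4b. How reads were divided among overlapping genes, and whether strand was used, is not given in the sources used here. Mpp6 ranged from 48.7 to 60.2 CPM in the controls and from 40.4 to 58.4 CPM after ox-LDL. The difference was -0.23 on the log2 scale, with a standard error of 0.16 and an adjusted p of 0.318 from edgeR's test, which did not pass the threshold. The part of shared reads in the fall of Gsdme was not tested.

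The 2 gasdermins could be set against each other within a library, which removes the scaling between libraries. The log2 ratio of Gsdmd to Gsdme counts was 2.44, 2.32, 1.99, 2.46 and 3.06 in control replicates 1 to 5. In ox-LDL replicates 1 to 5 it was 4.48, 6.78, 5.45, 5.43 and 8.39. The ratio was lowest in ox-LDL replicate 1 among treated libraries, still above every control, and highest in ox-LDL replicate 5. It averaged 2.45 ± 0.39 in the controls and 6.11 ± 1.52 after ox-LDL (SD, n = 5 each). The difference was 3.66 on the log2 scale. Exact permutation of the group labels (two-sided) gave p = 0.00794, the smallest value that 5 libraries against 5 allow. Every ox-LDL library held more Gsdmd and less Gsdme than every control, by library size alone too. That separation fixed the p of the ratio, which therefore adds no support beyond the results of the 2 genes. No overlap between the groups was seen for 20.7% of all genes tested. On the TMM-normalized CPM scale, the ox-LDL libraries with the most Gsdmd, replicates 5 and 2, held the least Gsdme, and the library with the least Gsdmd, replicate 1, held the most Gsdme. By library size alone that order of Gsdmd did not hold, since ox-LDL replicate 2 then had the lowest Gsdmd of the treated libraries, at 64.6 CPM, still above the highest control at 52.8 CPM. Deviations of the 2 genes from their group means had a Pearson correlation of -0.78 over the 10 libraries, which share their scaling factors.

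**Figure D2:**
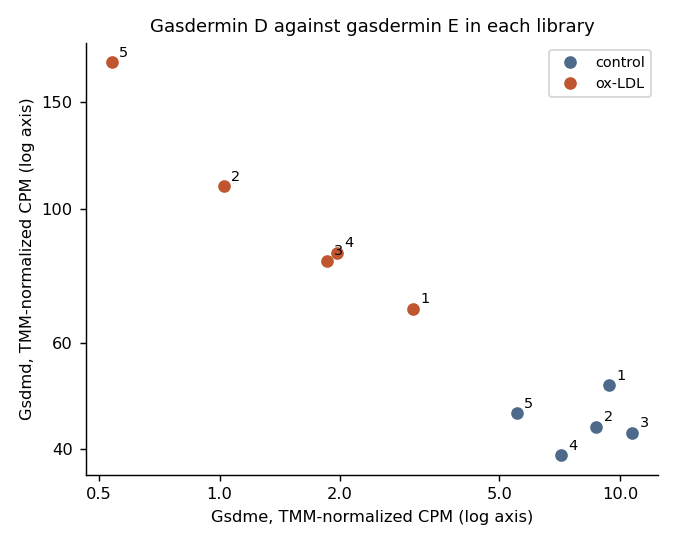
Gsdmd against Gsdme in each library, both in TMM-normalized CPM on log axes, with the replicate number beside each point. The 5 control libraries sit together at 39.1 to 51.0 CPM of Gsdmd, and the ox-LDL libraries run from replicate 1 (68.3 CPM of Gsdmd, 3.04 CPM of Gsdme) to replicate 5 (175 and 0.538 CPM).

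Panx1 (NCBI gene 55991) has 6 merged exons between 14809605 and 14849922 of chromosome 9 in mm9, minus strand. Control replicates 1 to 5 held 10.1, 7.45, 10.6, 7.62 and 8.34 CPM of Panx1. Ox-LDL replicates 1 to 5 held 25.8, 8.22, 29.4, 32.6 and 22.0 CPM. In 4 of the 5 ox-LDL libraries Panx1 was above every control, and in ox-LDL replicate 2 it was within the control range. Scaled by library size alone, Panx1 in ox-LDL replicate 2 was at 4.87 CPM, below the lowest control at 7.52 CPM. Panx1 rose 2.68-fold, or by 1.42 on the log2 scale, with a standard error of 0.31 and an adjusted p of 0.00529 from edgeR's test. Leaving out ox-LDL replicate 2 gave 1.59 and an adjusted p of 5.20e-05. Leaving out any other library but ox-LDL replicate 5 raised the adjusted p just above 0.01, to between 0.0110 and 0.0180. The adjusted p was 0.0397 with library size alone, 0.0116 with limma-voom and 0.0968 with limma on log2(FPKM + 1). The fold change was positive in each of the 24 settings.

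Ninj1 (NCBI gene 18081) has 7 merged exons between 49282854 and 49291613 of chromosome 13 in mm9, plus strand. It was at 818, 391, 438, 714 and 472 CPM in control replicates 1 to 5 and at 494, 1442, 512, 569 and 1038 CPM in ox-LDL replicates 1 to 5. The highest values of each group, controls 1 and 4 and ox-LDL replicates 2 and 5, stood well above the others, and the groups overlapped. The log2 fold change was 0.52 with a 95% interval of -0.19 to 1.22 (adjusted p = 0.316 from edgeR's test), so that neither no change nor a 2-fold rise was outside the interval. The interval was formed from the standard error with a normal distribution, which makes it narrower than edgeR's test would. The log2 fold change fell to 0.16 when ox-LDL replicate 2 was left out (adjusted p = 0.680).

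Chmp4b (NCBI gene 75608) has 6 merged exons between 154477441 and 154520521 of chromosome 2 in mm9, plus strand. Its levels were 294, 228, 220, 316 and 254 CPM in control replicates 1 to 5 and 237, 611, 269, 278 and 385 CPM in ox-LDL replicates 1 to 5. Apart from ox-LDL replicates 2 and 5, the treated libraries lay inside the control range. The log2 fold change was 0.44 with a 95% interval of -0.11 to 0.98 (adjusted p = 0.270 from edgeR's test), and 0.11 without ox-LDL replicate 2 (adjusted p = 0.659). The interval was formed in the same way as that of Ninj1, so that its upper end does not exclude a 2-fold rise.

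Ninj1 and Chmp4b varied together. Their deviations from the group means had a Pearson correlation of 0.94 over the 10 libraries, whereas those of Panx1 were opposed to both, at -0.67 with Ninj1 and -0.84 with Chmp4b. The length trend of the libraries moved with these values, and its part in them was not tested. By library size alone, without TMM, Ninj1 ranged from 450 to 748 CPM in the controls and from 548 to 868 CPM after ox-LDL, and Chmp4b at 258 to 312 and 282 to 362 CPM, a narrower spread in both. From count, FPKM and library total, the lengths used by the authors come to 990 bases for Ninj1, 1452 for Chmp4b, 1617 for Gsdmd, 1912 for Panx1 and 1993 for Gsdme. The 3 libraries in which short genes were high were among the 4 with the most Ninj1, while ox-LDL replicate 5, with a length correlation of only 0.06, was the other. With the length trend of each library removed, the log2 fold changes were 0.60 for Ninj1 (adjusted p = 0.0448) and 0.47 for Chmp4b (0.0509), still short of 0.01 in edgeR's test. In the same fit Gsdme was at -2.24 (6.51e-04) and Panx1 at 1.47 (0.00293), and Gsdmd was called as higher with an adjusted p of 0.00129.

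**Figure D3:**
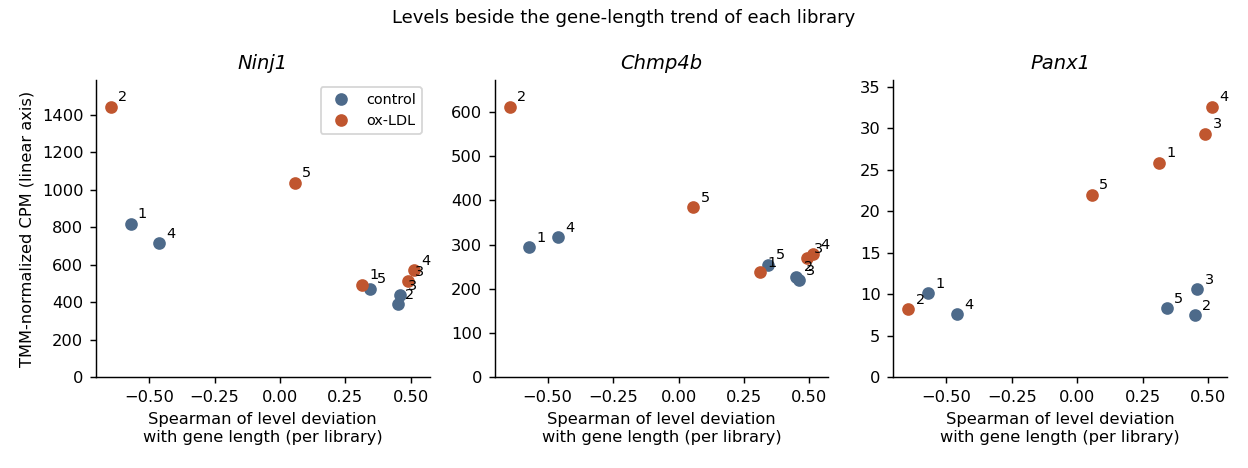
TMM-normalized CPM of Ninj1, Chmp4b and Panx1 (linear axes starting at 0) against the Spearman correlation, across genes, of each library's deviation from its group mean with gene length, with the replicate number beside each point. Negative values on the horizontal axis mean that short genes were high; ox-LDL replicate 2 has the highest Ninj1 and Chmp4b, at 1442 and 611 CPM, and among ox-LDL libraries the lowest Panx1, at 8.22 CPM.

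**Figure D4:**
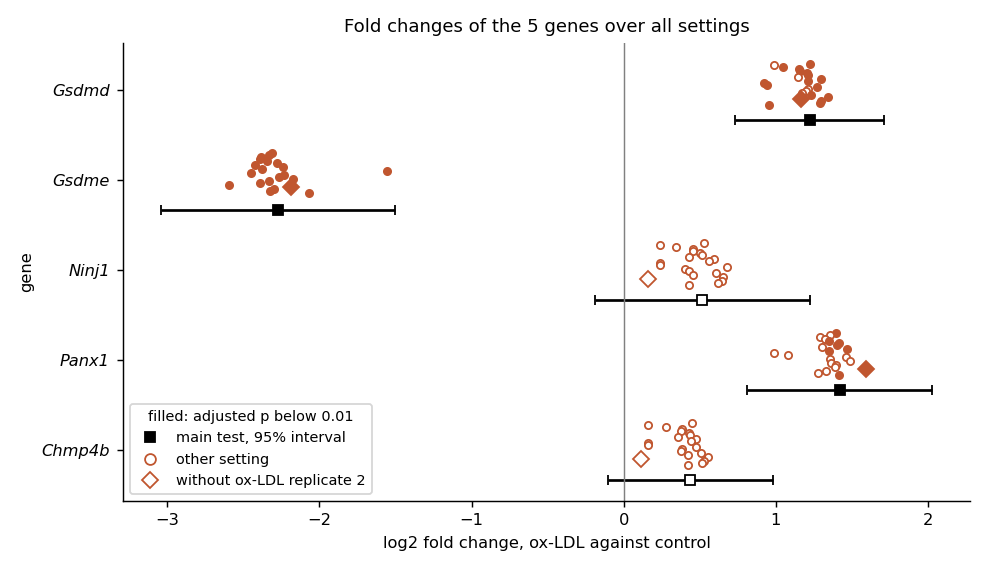
Log2 fold changes of the 5 genes in the test as reported (squares) and in the other settings (circles, and diamonds for the fit without ox-LDL replicate 2). Points are filled where the adjusted p was below 0.01. Bars are 95% intervals of the reported fit, formed from the standard error with a normal distribution. Gsdme lies between -2.60 and -1.56 and is filled throughout, Gsdmd lies between 0.92 and 1.34, Panx1 between 0.99 and 1.59, and Ninj1 and Chmp4b are open throughout, with diamonds at 0.16 and 0.11.

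Levels of different genes were compared per length, in FPKM as deposited. Ninj1 was at 586 ± 125 in the controls and 692 ± 150 after ox-LDL (SD, n = 5 each), rank 193 by mean FPKM among the 12654 genes tested. Chmp4b followed at 188 ± 15.1 and 211 ± 20.9, rank 514, and Gsdmd at 28.9 ± 3.42 and 57.5 ± 18.8, rank 1818. Panx1 was at 4.86 ± 0.958 and 12.5 ± 6.51, and Gsdme at 4.39 ± 1.17 and 0.892 ± 0.656. The order was the same in both groups. Neighbours in it were apart in every library of a group, except Panx1 and Gsdme in the controls, whose ranges of 3.84 to 6.41 and 3.28 to 6.15 FPKM overlapped. In the ox-LDL libraries the lowest Panx1 value was 2.49 and the highest Gsdme value 1.80. Transcripts for the rupture protein and for the repair subunit were thus more abundant per length than those for either gasdermin in every library.

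Promoter sequence from RefSeq (GRCm38.p6, the 250 bases before the start of the gene) was matched for 4 of the 5 genes, Gsdme, Ninj1, Panx1 and Chmp4b. Shown are those of the pair that moved in opposite directions, Panx1 at chr9:15045479-15045728 (minus strand) and Gsdme at chr6:50261770-50262019 (minus strand), and of the most abundant gene, Ninj1, at chr13:49187279-49187528 (plus strand). Capitals mark the GC box GGGCGG, a site of Sp1-family factors, on either strand:
Panx1: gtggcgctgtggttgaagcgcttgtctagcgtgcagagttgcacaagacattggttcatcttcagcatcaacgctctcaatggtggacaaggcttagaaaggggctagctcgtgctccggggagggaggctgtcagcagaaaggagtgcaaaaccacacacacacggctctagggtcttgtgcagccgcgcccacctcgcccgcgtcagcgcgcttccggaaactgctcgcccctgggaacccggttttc
Gsdme: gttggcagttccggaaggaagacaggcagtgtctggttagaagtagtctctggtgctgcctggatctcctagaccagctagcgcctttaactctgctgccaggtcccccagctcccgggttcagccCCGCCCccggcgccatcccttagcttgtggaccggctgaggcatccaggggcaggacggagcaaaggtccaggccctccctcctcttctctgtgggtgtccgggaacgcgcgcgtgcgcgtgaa
Ninj1: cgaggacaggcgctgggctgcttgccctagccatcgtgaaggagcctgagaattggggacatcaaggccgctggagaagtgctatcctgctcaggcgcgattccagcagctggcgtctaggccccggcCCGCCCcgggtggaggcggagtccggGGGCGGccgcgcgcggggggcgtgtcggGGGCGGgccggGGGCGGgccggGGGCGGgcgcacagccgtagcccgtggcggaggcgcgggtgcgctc
The GC box was found at 5 places in Ninj1, at 1 in Gsdme and at none in Panx1 or Chmp4b, against 32.7% of 32851 promoters with at least 1 and 1.93% with at least 5. The GC content was 76.0% in Ninj1, 64.0% in Gsdme, 62.0% in Chmp4b and 59.6% in Panx1, with a median of 52.4% over all promoters. None of the 4 windows held, on either strand, the core of the interferon-stimulated response element (2.98% of all promoters), the STAT motif TTCNNNGAA (7.02%), the AP-1 motif TGANTCA (6.75%) or the NF-kB motif (3.90%), which says only that these letters are not in these windows.

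The remaining gasdermin genes were at or near 0. Of 8 listed, 4 had a row (Gsdma, Gsdmc2, Gsdmc4 and Pjvk), none exceeded 4 counts in any library, and none was tested, so that Gsdmd and Gsdme were the gasdermins measurable at this depth among those with a row. Of 8 proteases that can cut a gasdermin, 4 were tested and 1 was called. The median log2 fold change of these 4 was 0.39, against 0.10 over all genes tested. Casp4, which encodes caspase-11, rose from 39.2 ± 11.3 to 201 ± 154 CPM (SD, n = 5 each; log2 fold change 2.36, adjusted p = 0.00170 from edgeR). Without ox-LDL replicate 2, the value of Casp4 was 1.71 (adjusted p = 1.72e-04). The other 3 did not pass the threshold. Log2 fold changes were 1.03 for Casp1 (adjusted p = 0.0170) and -0.25 for Casp8 (0.440), and Casp6 had means of 25.0 CPM in the controls and 12.6 CPM after ox-LDL (adjusted p = 0.0147). Without ox-LDL replicate 2, Casp6 was called as lower (-1.29, adjusted p = 6.46e-04). The transcripts of Gzma, Gzmb, Elane and Ctsg, the proteases of cytotoxic cells and neutrophils in the list, did not exceed 12 counts in any library.

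Of 12 regulators of gasdermin D, 1 was called. Irf1, an interferon-responsive transcription factor, rose from a mean of 24.0 to 625 CPM (log2 fold change 4.70, adjusted p = 2.14e-05 from edgeR), whereas Irf2, which is known to drive Gsdmd transcription, had a log2 fold change of 0.15 (adjusted p = 0.647). The palmitoyl transferase gene Zdhhc7 was at -0.71 (adjusted p = 0.0103) and Zdhhc5 at 0.75 (0.0559). The list had a median of -0.16. Without ox-LDL replicate 2, when 25.1% of all genes tested were called, 7 of the 12 were called, among them the Ragulator subunits Lamtor1, Lamtor2, Lamtor3 and Lamtor4 as lower, at -1.36, -1.04, -0.66 and -1.15. With all libraries Lamtor1 to Lamtor4 were at -0.87, -0.13, -0.18 and -0.30, and none was called. The subunit gene Lamtor5 was at 0.35 there (adjusted p = 0.636 from edgeR).

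Among other genes for pores, channels and membrane rupture, 6 of 10 were tested and 2 were called, with a median of 1.16. Mlkl, which encodes the pore-forming effector of necroptosis, rose from 18.5 ± 1.62 to 146 ± 42.2 CPM (log2 fold change 2.99, adjusted p = 7.34e-06 from edgeR), and Xkr8, a lipid scramblase gene, rose by 2.81 (adjusted p = 2.31e-04). P2rx7, the ATP-gated channel gene upstream of potassium efflux, was at -0.75 (adjusted p = 0.0231). Mpeg1, which encodes the macrophage pore protein perforin-2, was abundant in both groups, at means of 3339 and 3713 CPM, with a log2 fold change of 0.15 (adjusted p = 0.739). Ninj2, the paralog of Ninj1, and Panx3 had at most 1 count in any library.

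None of the 12 tested genes of ESCRT-III and its VPS4 partners other than Chmp4b was called; at an unadjusted p below 0.05 there were 0 in edgeR, 1 in DESeq2 and 2 in limma-voom, and DESeq2 and limma-voom also called 0 at an adjusted p below 0.01. Without ox-LDL replicate 2, Chmp3 was called as lower (-0.62, adjusted p = 0.00607), and with the length trend removed 1 gene was called as higher. Their log2 fold changes were between -0.41 (Chmp3) and 0.54 (Chmp2a), with a median of -0.01. Of the 13 tested genes for ESCRT-I, ESCRT-II and their ALIX partners, which recruit CHMP4 proteins to membranes, 2 were higher, the ESCRT-I subunit genes Ubap1 (log2 fold change 1.19, adjusted p = 0.00103) and Vps37a (0.73, adjusted p = 0.00348), and none was lower. Vps37a was no longer called without control replicate 1, 2, 4 or 5 or ox-LDL replicate 3, at adjusted p values of 0.0106 to 0.0148. The median of that list was 0.38, and -0.14 without ox-LDL replicate 2. Pdcd6ip, which encodes ALIX, was at 0.45 (adjusted p = 0.242). Among annexins and other calcium-dependent repair genes, 1 of 10 tested was called, and the median was -0.08. Anxa1, for the phospholipid-binding protein annexin A1, fell from a mean of 3259 to 658 CPM, by 2.31 on the log2 scale (adjusted p = 0.00106), while Anxa2, Anxa3, Anxa4 and Anxa5 had values of -0.60, -1.07, 0.23 and 0.01 (adjusted p = 0.119, 0.0204, 0.544 and 0.979). Without ox-LDL replicate 2, Anxa3 was called as lower too (-1.25, adjusted p = 0.00471).

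**Figure D5:**
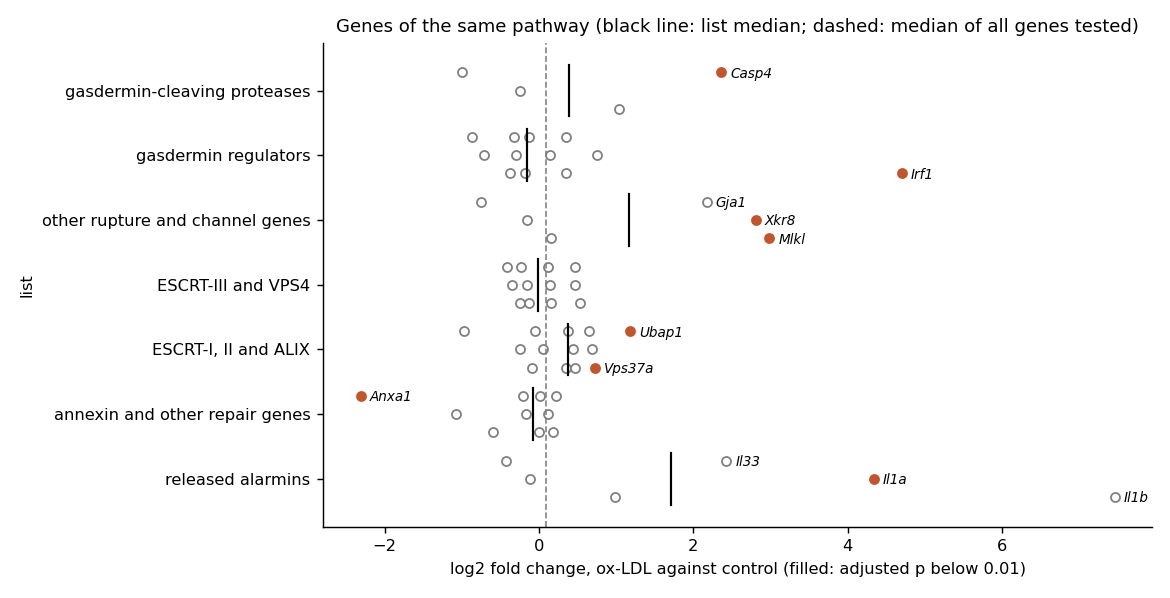
Log2 fold changes between ox-LDL and control libraries for the tested genes of 7 lists (filled points have an adjusted p below 0.01, black lines are list medians, and the dashed line is the median of all genes tested, 0.10). Casp4, Irf1, Mlkl, Xkr8 and Il1a lie past 2 and Anxa1 past -2 among the filled points (Casp4 was at 1.71 without ox-LDL replicate 2), and all 12 points of the ESCRT-III list are open and lie between -0.41 and 0.54.

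Of the cargo that leaves through gasdermin pores or on rupture, Il1a was called among 6 genes with a median of 1.71, at a log2 fold change of 4.34 (adjusted p = 1.87e-04), and 3.66 without ox-LDL replicate 5 (adjusted p = 1.16e-04). Il1b had the largest value in the list, 7.46, with a standard error of 2.03 and an adjusted p of 0.0180 from edgeR, and was not called. Its ox-LDL libraries ran from 18.3 to 2957 CPM (mean 634, SD 1299), so that the mean rests mainly on the highest library. The controls ran from 0.155 to 16.8 CPM. Il18, the other cytokine released through the gasdermin D pore, was at -0.12 (adjusted p = 0.886), and Hmgb1, an alarmin released on rupture, at -0.43 (adjusted p = 0.324). Ldha, which encodes a subunit of the lactate dehydrogenase used to measure cell lysis, was at 0.98 (adjusted p = 0.0441).

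The genes most like each member over the 10 libraries were sought among 7504 genes with a mean of at least 10 CPM, by the Pearson correlation of log2(CPM + 1), as a description. For Gsdmd they were Slc31a1, Dram1 and Nampt (0.99, 0.99 and 0.99), and for Gsdme they were Gusb, Pros1 and Mxd4 (0.99, 0.99 and 0.99), 3 genes that fell with it. For Panx1 they were Rassf4, Zadh2 and Tnfaip1 (0.98, 0.97 and 0.96), for Ninj1 they were Bsg, Pdcd2l and Htra2 (0.98, 0.97 and 0.96), and for Chmp4b Trappc5, Cnih4 and Edf1 (0.99, 0.99 and 0.99). By deviations from the group means, which leaves out the difference between the groups, they were Dram1, Bnip3 and Nampt for Gsdmd, Pstpip1, Pros1 and Manea for Gsdme, Nkain1, Rassf4 and Hjurp for Panx1, Fkbp1b, Ctsz and Tbcc for Ninj1, and Edf1, Vps28 and 0610010K14Rik for Chmp4b. Dram1 and Nampt for Gsdmd, Pros1 for Gsdme, Rassf4 for Panx1 and Edf1 for Chmp4b were in both lists, and none was for Ninj1. The libraries share their scaling and length trends.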

How the data were processed

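Bulk RNA-seq libraries of 5 control and 5 ox-LDL-treated macrophage cultures were grouped by their labels. Per the study and the submitters' processing notes, FastQC served for read quality, HISAT2 (version 2.0.5) for alignment to mm9, SAMtools (version 1.4) for sorting and StringTie (version 1.3.3.13) for assembly. The authors deposited estimated counts for each gene (13.6% of the values are not whole) and a value per gene and library without a stated unit. Count divided by that value and by the library total gave a nearly constant length per gene (median CV 2.30% over 10606 genes), so these deposited values were taken as FPKM. The counting step and its use of strand are not given in the sources used here.

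Counts were rounded, 9788 circular RNA rows left out of 39488, and genes filtered (filterByExpr), TMM-scaled and tested with edgeR 4.0.16 (quasi-likelihood, robust) in R 4.3.3, with Benjamini-Hochberg adjustment over 12654 genes and calls below 0.01. The procedure was tested on simulated data. DESeq2 1.42.0, limma 3.58.1 (voom, and log2(FPKM + 1)), other scalings and filters, a replicate block, removal of the length trend and omission of each library were the alternatives. Symbols came from RefSeq and coordinates from GENCODE on mm9. The genes named were the members, the called genes of each list (at most 4) and those whose role is explained, the most alike genes, and the most abundant or called markers. Mpp6, Chmp3, Anxa3, Mmp8, Ltf, Upk3b, Lrrn4 and Lum were chosen after values were seen. Results for some list genes were left out. Members and lists were chosen with earlier results of these data known. P-values set the difference between the groups against the spread of these libraries within a group. At 19257131 to 20687289 counts a library, depth limits Gsdme most. Counting intervals are not given, since replicates carry the error.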

Additional observations from a re-analysis of the deposited data

How the results depend on the processing

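No direction of the 5 genes reversed in any of the 24 settings (23 for Gsdme, which a minimum of 10 counts in each library removed). Gsdme stayed called throughout, at -2.60 to -1.56. Ninj1 (0.16 to 0.68) and Chmp4b (0.11 to 0.56) were not called at 0.01 in any setting. Gsdmd lost its call with library size alone (0.99) and with the replicate block (1.15, adjusted p = 0.0117), and ranged from 0.95 to 1.34 with 1 library left out. Panx1 lost its call with library size alone (1.36), upper-quartile scaling (1.29), limma-voom (1.32), the replicate block (1.31, adjusted p = 0.0122) and limma on log2(FPKM + 1) (0.99) or log2(FPKM + 0.1) (1.08), and ranged from 1.28 to 1.59 with 1 library left out. The cause was not tested. Same-numbered libraries correlated between -0.26 and 0.42 in their deviations, and 2 of 5 ox-LDL libraries were closest to the control of their own number, so the numbers were not taken to pair the libraries. Sign flips over same-numbered pairs gave p = 0.0625 for the Gsdmd to Gsdme ratio (difference 3.66, an exact test over 32 arrangements that allows no smaller p). The separation of the groups in both genes fixed this p too. The difference was 3.09 to 4.06 with 1 library left out.

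The number of genes higher was 1189 as reported, 704 with library size alone, 2045 at an adjusted p below 0.05, 555 and 543 with limma on FPKM (pseudocounts 1 and 0.1), and 826 to 1755 with 1 library left out. The number lower was 677, and 1244 with DESeq2, 1320 at 0.05, 1226 with the length trend removed, 1234 with the replicate block as well, and 436 to 1502 with 1 library left out. Past a log2 change of 2, 605 were upregulated, 360 with at least 10 counts in every library and 259 and 338 with FPKM, and 244 were downregulated, 111 and 127 with the first and second of these. The median change over all genes was 0.10, and -0.09 with library size alone, and the values of Ninj1 and Chmp4b were 0.24 and 0.16 there. Of all genes tested, 25.1% were called without ox-LDL replicate 2 and 22.7% with the length trend removed, against 14.7% as reported. In the same settings and order, calls were 2 and 3 of 4 tested proteases (1 as reported) and 7 and 3 of 12 regulators (1). They were 1 and 1 of 12 for ESCRT-III (0) and 2 and 2 of 10 for the annexin list (1). For ESCRT-I, ESCRT-II and ALIX they were 4 and 2 of 13 (2).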
